A study of Homo sapiens with 2 samples.

Results

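The 74 genes described here are those whose own probe sets gave different answers about the effect of a BCLAF1-L hairpin in RKO, a cell line established from a human colon carcinoma. A probe set is a group of short oligonucleotides on the array that together read 1 stretch of a transcript, and many genes carry several. The genes were chosen from the measured values. For each probe set the difference was the log2(intensity + 1) of the knockdown minus that of the control. Probe sets with 1 gene symbol and an intensity of at least 100 on both arrays were kept, and a gene entered when its highest difference exceeded its lowest by at least 0.6, a ratio of 1.52 between probe sets. Of 4968 genes with 2 or more kept probe sets, 74 met this rule, or 1.49%, and they held 292 kept probe sets. BCLAF1, the target of the hairpin, was left out.

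The study compared 2 arrays, 1 for each group. The sh-Luci array held RNA from RKO cells infected with a retrovirus that carries a control hairpin against luciferase, and the sh-BCLAF1-L array held RNA from RKO cells infected with a retrovirus that carries a hairpin against the long form of BCLAF1. Per the series' design text, both cultures had their medium changed 24 h after infection and were selected with 2 ug/ml puromycin for 72 to 96 h, so both carry an integrated hairpin vector and a resistance marker. A single hairpin was used, so lower BCLAF1 and other effects of that hairpin cannot be told apart. With 1 array a group there was no replicate, and no test, standard error or p-value was computed: every value below is a single measurement. In each pair of intensities the control comes first and the knockdown second, and the number in parentheses is the log2 difference.

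BCLAF1 is a nuclear protein rich in arginine and serine that is found with factors of transcription and of mRNA splicing and export. A gene can give rise to several mature transcripts by alternative promoters, alternative splicing or alternative cleavage and polyadenylation, and these forms can differ in the protein they encode or in how stable they are. Arrays of this type are labelled from the poly(A) tail, so most probe sets lie near a 3' end, and probe sets of 1 gene may lie in different exons or downstream of different poly(A) sites. Probe set names carry a hint of what they can bind: a plain _at name marks probes chosen to be unique, _a_at marks probes shared by transcripts of 1 gene, _s_at marks probes shared by several transcripts, and _x_at marks probes with some similarity to other sequences. The probe sequences and the transcripts each probe set reads were not analysed here, so no disagreement below is assigned to a named transcript form. An annotation error, binding to another transcript and a true change of form were not told apart.

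The deposited intensities had medians of 82.7 and 84.5 on the control and knockdown arrays. All 6 BCLAF1 probe sets read lower in the knockdown, from 1.43-fold to 2.96-fold, and its 5 kept probe sets spanned 1.05 on the log2 scale. Of 10 colon epithelial markers, EPCAM, KRT18 and LGALS4 reached 100 on both arrays, whereas CDH1, KRT8, KRT19, KRT20, VIL1, CDX2 and MUC2 did not. Among markers of other cell types, 1 of 5 fibroblast, 2 of 4 blood and 2 of 4 endothelial markers measured here reached 100, and none was at 0. Their summed intensities were 621 and 682 for fibroblast, 407 and 425 for blood and 331 and 346 for endothelial markers, against 2041 and 1737 for the epithelial ones. Both arrays hold RNA of 1 cultured line, so these readings are no measure of other cell types. The blood marker HBB, at 196 and 226, and the endothelial marker VWF, at 177 and 194, passed 100. A reading of that size need not stand for expression of the named gene, and this was not tested. Of the kept probe sets of the 74 genes, 98 of 292 read under 200 in the control (33.6%), against 31.2% over all 4968 genes. For the 3' control probe set over the 5' one the ratio was 3.41 and 3.81 for ACTB and 1.38 and 1.49 for GAPDH, so on the knockdown array the 5' probe sets were lower relative to the 3' ones by 0.16 and 0.10 on the log2 scale. Whether this tilt has a part in any disagreement was not tested.

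Control probe sets gave a limited view of how far probe sets of 1 RNA differed on this pair of arrays. They were grouped by name, so 1 spike-in RNA can stand under 2 names, as bioB does, which can narrow its spread. Probe sets for 8 hybridisation spike-in entries, of RNAs added in fixed amounts, had spreads of 0.015 to 0.21. Those of 6 poly-A spike-in entries had spreads of 0.084 to 0.30, and those of 5 human control RNAs 0.10 to 0.44. None of these entries reached the 0.6 that defines the 74 genes. Each had only 2 or 3 probe sets, and of all genes with 2 or 3 kept probe sets only 0.563% and 1.42% reached it. With so few entries this result was likely in any case, and it sets no bound on technical error. Over all genes with 2 or more kept probe sets, the pooled within-gene SD was 0.14, the median spread 0.16, the 95th percentile 0.46 and the 99th percentile 0.65. Neither measure covers the spread between cultures, infections or arrays.

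**Figure D1:**
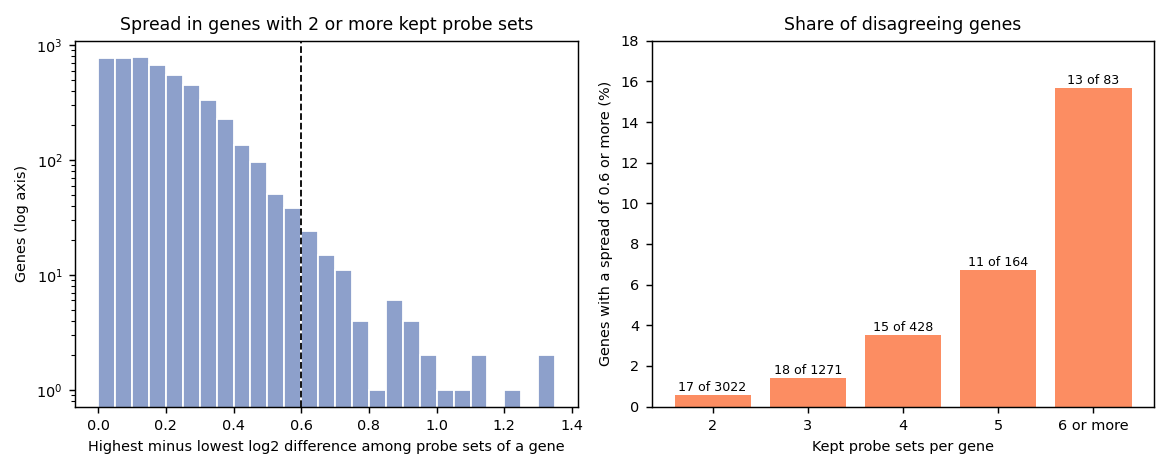
Left, a histogram of the highest minus lowest log2 difference for the 4968 genes with 2 or more kept probe sets (log axis for the number of genes; the dashed line marks 0.6). Right, bars from 0 show the percentage of genes at or past 0.6 by the number of kept probe sets, which climbs from 17 of 3022 genes with 2 probe sets to 13 of 83 with 6 or more.

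The spread of the 74 genes ran from 0.60 to 1.31 with a median of 0.70, a 1.62-fold gap between the 2 most distant probe sets of a gene. It reached 1 or more in 7 genes, and 39 lay between 0.6 and 0.7. Just inside the limit were TWF1, TERF2 and DDX19A at 0.61, 0.61 and 0.60. Just outside were CDC14B, GPATCH2 and EXOSC3 at 0.5999, 0.5971 and 0.5971. A gene with more probe sets has more chances to reach the limit, and the share of genes that did climbed from 0.563% with 2 kept probe sets to 1.42% with 3, 3.50% with 4, 6.71% with 5 and 15.7% with 6 or more. The share also varied with brightness. Of genes whose dimmest kept probe set read 100 to 150 in the control, 43 of 1842 (2.33%) entered, against 4 of 852 (0.469%) where the dimmest read 400 or more. Among genes with exactly 2 kept probe sets the same shares were 0.507% (5 of 986) and 0.482% (3 of 622), and among genes with 4 or more they were 7.93% (26 of 328) and 1.67% (1 of 60).

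Kept probe sets lay on both sides of 0 in 66 of the 74 genes, where 50.5% of all 4968 genes had this. The rule favours such genes, so nothing is read from that count. In 7 genes, 0.141% of the 4968, 1 probe set was at least 0.3 higher and another at least 0.3 lower: SCAF11, BMS1P20, MCL1, BBS7, PIK3C2A, PACC1 and SMURF2. In the remaining 8 genes every kept probe set lay on 1 side: all were higher in EPB41L4B, TMF1, SDAD1, SSX2IP, NUCKS1, MLH3 and TIMM17A, and both were lower in CFL1.

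How far a disagreement hung on 1 probe set was described by leaving that probe set out. The odd probe set is defined here, for the 57 genes with 3 or more kept probe sets, as the one whose removal lowers the spread most. The spread of the others was under 0.6 in 54 genes and under 0.3 in 36, with a median of 0.28. Since the genes were chosen for their spread, 39 of the 74 between 0.6 and 0.7, a fall under 0.6 follows largely from this definition and is no finding. The odd probe set was the higher one in 42 genes and the lower one in 15. The remaining 17 genes had 2 kept probe sets, and neither can be called odd. The 3 genes whose other probe sets still spanned 0.6 or more were ZNF148, MALAT1 and PATL1.

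Odd probe sets had a median control intensity of 206, and the median of the other probe sets of the same genes was 379. The odd probe set read less than 25% of the median control intensity of the gene's other probe sets in 16 genes, between 25% and 100% in 28, and at least 100% in 13. The odd probe set was the dimmest of its gene in 25 of 57 genes and the brightest in 6, namely ZNF148, EPB41L4B, TBRG1, CNNM2, SPTAN1 and TERF2. Higher odd probe sets had a median control intensity of 175 and lower ones of 385. Brightness was read here on the control array, where a probe set that is higher in the knockdown has its dimmer reading. This contrast therefore follows in part from the definition, as may the other brightness values of this paragraph, and nothing is read from it. By name, 31 of the 57 odd probe sets ended in plain _at, 17 in _s_at, 8 in _x_at and 1 in _a_at. Over all 12927 kept probe sets of the 4968 genes, the shares were 51.0% for _at, 35.0% for _s_at, 11.5% for _x_at and 2.33% for _a_at.

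**Figure D2:**
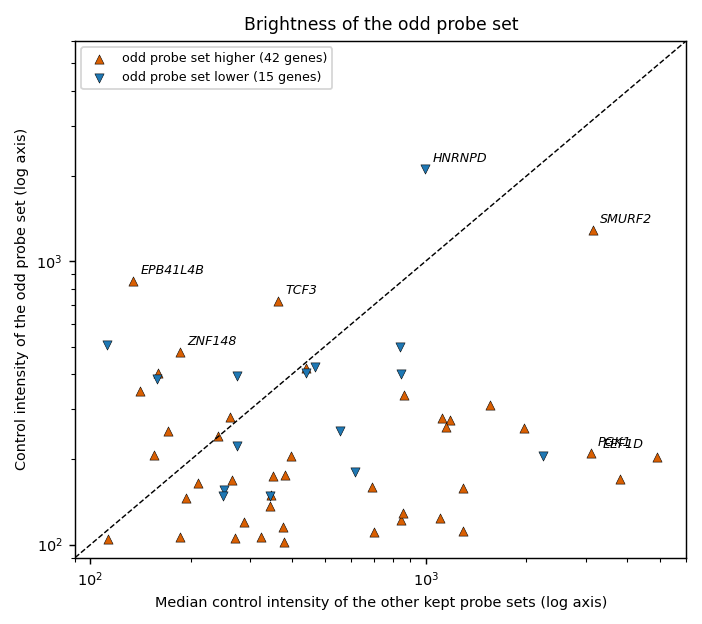
Each point is 1 of the 57 genes with 3 or more kept probe sets; the horizontal axis is the median control intensity of the other probe sets and the vertical axis that of the odd one (both log axes, dashed line at equality). Most points lie below the line, with EEF1D and PGK1 far to the right, whereas ZNF148, EPB41L4B, TCF3 and HNRNPD lie above it.

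The first group takes 9 regulators of transcription and chromatin, of which 8 had 3 or more kept probe sets, all with a higher odd probe set. So had 42 of all 57 such genes. The role groups used from here on order the genes for reading; they were drawn up with the values known and are no evidence of a shared response. ZNF148, a zinc finger factor that binds GC-rich promoters, had the largest spread of all genes, 1.31. Its brightest probe set, 203318_s_at, read 479 and 964 (1.01), which is 2.01-fold higher, while 238711_s_at and 203319_s_at read 223 and 181 (-0.30) and 218 and 209 (-0.059). The plain _at probe sets 239024_at and 230821_at read 153 and 159.8 (0.063) and 138 and 171 (0.31). Thus 2 probe sets were lower, 2 were somewhat higher and 1 was far higher, and without _s_at and _x_at probe sets the spread of ZNF148 was 0.25.

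Other genes of this group also rested on 1 higher probe set. TBRG1, a nuclear growth regulator that interacts with the ARF tumour suppressor, had its brightest probe set, 225819_at, at 348 and 646 (0.89), against -0.057 to 0.31 on the others, and its 230320_at, below the intensity limit, read 95.6 and 80.5 (-0.25). TMF1, a Golgi-associated factor first described through its binding to TATA elements, had 0.0015 to 0.22 on 4 probe sets, while 215855_s_at, its dimmest, read 102 and 196 (0.93). NUCKS1, an abundant chromatin-associated phosphoprotein, was higher on all 7 probe sets, by 0.072 to 0.37 on 6 of them, and 222027_at read 159.5 and 281 (0.81). In SETD4, a SET-domain methyltransferase with 2 kept probe sets, 213989_x_at read 299 and 559 (0.90) and 219482_at 115 and 113 (-0.021). The higher one has an _x_at name.

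TCF3, a helix-loop-helix E protein, had 9 kept probe sets, of which 8 differed by -0.16 to 0.15. The remaining one, 202648_at, read 722 and 997 (0.47) and was brighter than 6 of the others. MED16 and MED30 are subunits of Mediator, the complex that links transcription factors to RNA polymerase II. In MED16 the odd probe set 221544_s_at read 146 and 197 (0.43) against -0.21 to 0.14 on the others, and in MED30 230555_s_at read 124 and 171 (0.46) against -0.15 to 0.10 on probe sets that were far brighter. PHF19, a Polycomb accessory protein that binds methylated histone tails, was lower on 227212_s_at and 227211_at, which read 908 and 747 (-0.28) and 814 and 737 (-0.14), and higher on 225533_at, at 338 and 426 (0.33). All 3 PHF19 probe sets read above 200 on both arrays.

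**Figure D3:**
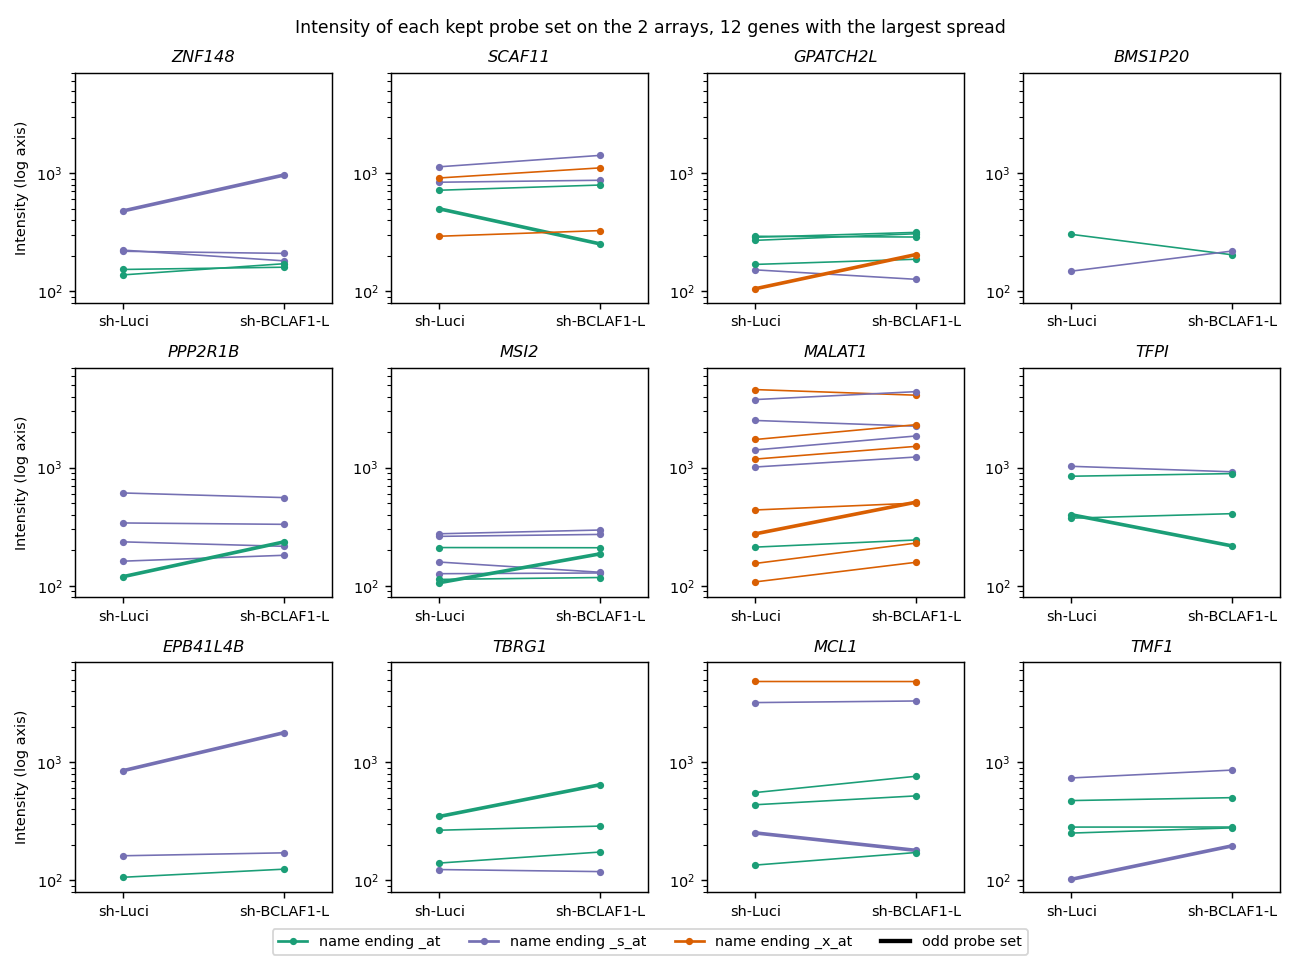
Intensities (log axis) of every kept probe set on the sh-Luci and sh-BCLAF1-L arrays for the 12 genes with the largest spread; each line is 1 probe set, coloured by its name ending, and the thick line is the odd probe set of a gene with 3 or more. In SCAF11 and TFPI the thick line falls while the other lines stay level or move little, and in ZNF148 and EPB41L4B the brightest line climbs.

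In genes of RNA processing and translation, 9 in number, the odd probe set was higher in 4 and lower in 5. Over all 57 such genes it was higher in 42 and lower in 15. SCAF11, an SR-related protein of spliceosome assembly that also associates with RNA polymerase II, had the lowest single difference of all 292 probe sets. Its 235579_at read 499 and 252, a difference of -0.98, a 1.98-fold lower value. The other 5 differed by 0.055 to 0.32, and the brightest, 213850_s_at, read 1131 and 1413 (0.32). The gene was therefore far lower on 1 probe set and higher on the other 5.

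HNRNPD, also called AUF1, binds AU-rich elements and steers mRNA decay, and it is known for several splice forms. Its bright probe set 209330_s_at read 2109 and 1398, a difference of -0.59, 1.51-fold lower. The still brighter 200073_s_at and 221481_x_at read 4903 and 5344 (0.12) and 5285 and 5727 (0.12), and the 3 plain _at probe sets differed by -0.044, 0.017 and 0.10. All 6 HNRNPD probe sets read above 200 on both arrays, and the spread of 0.72 was 0.15 without _s_at and _x_at probe sets. SRPK2, a kinase that phosphorylates SR splicing proteins, was lower on 214931_s_at, at 395 and 296 (-0.42), and higher on its brightest, 203182_s_at, and on 203181_x_at, at 1041 and 1195 (0.20) and 492 and 565 (0.20). The other 3 lay between these.

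HNRNPD and SRPK2 were the 2 members among 42 listed splicing regulators with 2 or more kept probe sets, a share of 4.76% where 1.49% of all genes entered, and the median spread of those 42 genes was 0.23 against 0.16 over all 4968. These regulators had more probe sets than most genes: 16 of 42 (38.1%) had 4 or more, where 13.6% of all genes did. Both members were among those 16, while 39 of all 675 genes with 4 or more entered. The median spread of these 16 regulators was 0.27, as was that of the 675 genes. With 3 or more probe sets it was 0.27 over 27 regulators and 0.23 over 1946 genes. With only 2 members, nothing is read from their share. On their brightest kept probe sets, 46 splicing regulators had a median difference of -0.025, against 0.016 over 11572 genes, and none was 1.5-fold higher or lower, where 0.268% of all genes were higher and 0.156% lower. Of 13 cleavage and polyadenylation factors with 2 or more kept probe sets none entered, their median spread was 0.22 and the largest was 0.37, for the poly(A) polymerase PAPOLA. The median difference of 21 such factors was 0.0078, and none passed 1.5-fold. These counts describe this pair of arrays only.

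THOC2, a subunit of the THO complex that couples transcription to mRNA export, was lower on 226628_at, at 180.3 and 126 (-0.51), and differed by 0.019 to 0.11 on 3 brighter probe sets. DDX19A, a DEAD-box helicase of mRNA export, read 462 and 373 (-0.31) on 202577_s_at and 137 and 168 (0.29) on 1570128_at, and lay closest to the limit of all 74 genes. It has a close paralogue, DDX19B, and a probe set annotated to both read 701 and 686 (-0.033). MSI2, a Musashi protein that binds mRNA and regulates translation, had 7 kept probe sets, of which 6 differed by -0.28 to 0.10 and 243010_at, the dimmest, read 106 and 187 (0.81).

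PATL1, which promotes mRNA decapping in P-bodies, had probe sets spread over a wide range: 235235_s_at read 223 and 146 (-0.60), 225466_at 422 and 331 (-0.35), 225468_at 535 and 450.0 (-0.25), 235234_at 126 and 132 (0.065) and 244342_at 107 and 131 (0.29). Its 3 brightest probe sets in the control were 225468_at, 225466_at and 235235_s_at, all lower in the knockdown, and the first pair lay 0.097 apart. SDAD1, a nucleolar factor of large ribosomal subunit export, was higher by 0.034 to 0.27 on bright probe sets and by 0.89 on the dim 224037_at, which read 122 and 227. EEF1D, a subunit of the elongation factor complex that reloads eEF1A, was bright and differed little, by -0.069 and -0.019 on 214394_x_at and 203113_s_at. Its 213087_s_at read 205 and 317 (0.63), and 214395_x_at, nearly as dim, read 284 and 306 (0.11).

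DNA repair and telomere maintenance took 5 genes. In both that had 3 or more kept probe sets, REV1 and TERF2, the odd one was lower, as in 15 of all 57 such genes. EME1, the partner of the MUS81 endonuclease, read 861 and 1230.4 (0.51) on 234464_s_at and 181 and 168 (-0.10) on 234465_at. MLH3, a mismatch repair protein, read 117 and 196 (0.74) on 204838_s_at and 136 and 143 (0.074) on 214525_x_at, all under 200. ASCC3, a helicase of alkylation repair and of ribosome rescue, was lower on 231269_at, at 234 and 159 (-0.55), and higher on 212815_at, at 506 and 555 (0.14). REV1, a translesion polymerase, was lower on 222629_at, at 149 and 104 (-0.52), and differed by 0.0078 to 0.17 on its other probe sets. TERF2, the shelterin protein that caps telomeres, was lower on its brightest probe set, 203611_at, at 385 and 323 (-0.25), and higher on 235872_at, at 168 and 215 (0.35).

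Genes of the cytoskeleton and of adhesion numbered 10, and the odd probe set was the higher one in all 9 that had 3 or more. It was the higher one in 42 of all 57 such genes, and nothing is read from the group's count. EPB41L4B, a FERM-domain protein that links membranes to actin, had the highest single difference of all 292 probe sets. Its 220161_s_at read 849.8 and 1780.4, a difference of 1.07, a 2.09-fold higher value, while 220524_at and 223427_s_at read 106 and 125 (0.23) and 162 and 171 (0.082). The 3 probe sets below the intensity limit differed by -0.27, 0.032 and 0.087, so 1 bright probe set stood against 5 dimmer ones.

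In 3 actin regulators, CALD1, TWF1 and MICAL2, the dimmest kept probe set was higher and the others were lower. In CALD1, caldesmon, 5 probe sets differed by -0.50 to -0.18, among them the brightest, 212077_at, at 1909 and 1543 (-0.31), and 235834_at read 176 and 208 (0.24). In TWF1, the actin monomer-binding twinfilin, 201745_at and 214007_s_at read 2230.1 and 1749 (-0.35) and 361 and 258 (-0.48), and 244199_at 159 and 173 (0.12). CFL1, the actin-severing cofilin, was lower on both of its kept probe sets, and more so on the dimmer one. It read 9130.0 and 8899.7 (-0.037) on 200021_at, the brightest of the 292 probe sets, and 963 and 609 (-0.66) on 1555730_a_at, a 1.58-fold lower value. MICAL2, a monooxygenase that disassembles actin filaments, differed by -0.28 on 212472_at and -0.048 on 212473_s_at and was higher on the dim 206275_s_at, at 116 and 157 (0.43).

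The spectrins form the membrane skeleton. In SPTBN1, beta spectrin, the brightest probe set 212071_s_at read 2497 and 2747 (0.14), and 226765_at read 169 and 274 (0.70), while the other 3 were slightly lower. In SPTAN1, alpha spectrin, the brightest probe set 215235_at read 404 and 525 (0.38) and 208611_s_at read 159 and 131 (-0.27). ITGB1, the beta subunit of many matrix-binding integrins, differed by -0.053 to 0.051 on 4 probe sets, the brightest of which, 211945_s_at, read 7862 and 7626 (-0.044). Its 216190_x_at read 171 and 264 (0.63), and without _x_at probe sets the spread of ITGB1 was 0.013.

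SSX2IP, an adaptor of junctions and centrosomes, was higher by 0.14 to 0.18 on 4 _s_at probe sets and by 0.44 and 0.93 on 2 _x_at ones, of which 210871_x_at read 421 and 801. Its disagreement ran along the name endings, and without _x_at probe sets its spread was 0.035. NDE1, a dynein regulator of mitosis, read 241 and 319 (0.40) on 218414_s_at and 183 and 155 (-0.24) on 230219_at.

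Signalling, cell death and protein turnover took 10 genes. PPP2R1B encodes a scaffold subunit of protein phosphatase 2A. Its 4 _s_at probe sets differed by -0.13 to 0.16, whereas 222351_at, the dimmest, read 119.8 and 236 (0.97). STRN, striatin, which holds the same phosphatase in a kinase complex, differed by -0.12 to 0.25 on 4 probe sets and read 252 and 386 (0.62) on 227422_at. PIK3C2A, a class II phosphoinositide 3-kinase, differed by -0.33 to -0.11 on 4 probe sets, including its brightest, 213070_at, at 1541 and 1431 (-0.11), and was higher on 1569588_x_at, at 150.1 and 220.3 (0.55). The higher probe set had an _x_at name, as did 1 of the lower ones, and without such probe sets the spread of PIK3C2A was 0.23.

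MCL1 is an anti-apoptotic BCL2 relative known for a short splice form of opposite activity. Its brightest probe sets, 200798_x_at and 200797_s_at, read 4825 and 4821 (-0.0011) and 3199 and 3301 (0.045), the smallest differences of the 6. At the edges 200796_s_at read 252 and 179.6 (-0.49) and 214056_at 554 and 761 (0.46). The probe sets 214057_at and 227175_at read 437 and 519 (0.25) and 135 and 172 (0.35), on the same side as 214056_at.

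FKBP1A, the prolyl isomerase that binds FK506 and rapamycin, was lower on its 3 brightest probe sets, with 200709_at at 1199 and 833 (-0.52), 214119_s_at at 1119.5 and 905 (-0.31) and 210186_s_at at 504 and 413 (-0.29), and higher on 210187_at, at 279 and 316 (0.18). RHEB, the GTPase that activates mTORC1, differed by -0.20 to 0.074 on 5 probe sets, the brightest of them, 201453_x_at, at 4657 and 4903 (0.074), and read 257 and 359 (0.48) on 213409_s_at. SMURF2, a ubiquitin ligase of TGF-beta signalling, disagreed on bright probe sets: 232020_at read 1379.5 and 1108 (-0.32) and 230820_at 1291 and 1602 (0.31). Its brightest probe set, 205596_s_at, read 6740.3 and 6699 (-0.0088) and lay between them.

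ANAPC7, a subunit of the anaphase-promoting complex, was lower on 225521_at, at 187 and 119 (-0.65), and higher on the brighter 225554_s_at, at 548 and 598 (0.13). NUB1, which lowers NEDD8 conjugates, differed by -0.15 to 0.065 on bright probe sets and read 111 and 157 (0.49) on the dim 234332_at. PDCD2, a chaperone of ribosomal protein assembly, was lower on 228420_at and 213581_at, at 151 and 112 (-0.43) and 322 and 250.4 (-0.36), nearly level on its brightest, 204025_s_at, at 898 and 876 (-0.035), and higher on 213585_s_at, at 106 and 126 (0.24).

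IFI44, ERAP1 and TFPI act in interferon responses, antigen processing and secretion. IFI44, an interferon-induced protein, was the only member among 14 interferon-stimulated genes listed here with 2 or more kept probe sets, a share of 7.14% from 1 gene where 1.49% of all genes entered. The median spread of these 14 genes was 0.28, and that of the 11 with exactly 2 probe sets 0.14, against 0.16 and 0.12 over all genes. For the 3 with 3 or more it was 0.39, against 0.23 over all genes. IFI44 was 1 of those 11, where 17 of all 3022 genes with exactly 2 entered. The IFI44 probe set 214453_s_at read 629 and 347, a difference of -0.86, and 214059_at read 196 and 197 (0.0088). On their brightest kept probe sets 40 genes of that list had a median of -0.28, and 8 were at least 1.5-fold lower, 20.0%, where 0.156% of all genes were. This list was chosen with that shift known. ERAP1, the aminopeptidase that trims peptides for MHC class I, was higher on 209701_at, at 176 and 269.6 (0.61), and lower on the brighter 209788_s_at, at 444 and 409 (-0.12). Its 3 probe sets below the intensity limit lay inside that range.

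TFPI, the Kunitz inhibitor that blocks the start of coagulation, is made in forms that differ at the carboxyl end. Its 210665_at read 399.7 and 218, a difference of -0.87, 1.83-fold lower, while 210664_s_at, 213258_at and 209676_at read 1027 and 923 (-0.15), 847 and 891 (0.074) and 374 and 408 (0.13). All 4 probe sets exceeded 200 on both arrays. The spread of TFPI was 0.91 with a pseudocount of 32, 0.28 without 210665_at and 0.23 on its 2 brightest probe sets.

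In genes of membrane traffic, channels and the endoplasmic reticulum, 9 in all, the probe sets went both ways in each. They did so in 66 of the 74 genes, which the rule favours, so nothing is read from this. BBS7, a subunit of the BBSome that sorts cargo to cilia, had 2 kept probe sets that mirrored each other: 235007_at read 162 and 119.6 (-0.43) and 219688_at 137 and 189 (0.46). PACC1, a proton-activated chloride channel, did the same at smaller size, with 151 and 121 (-0.31) on 218814_s_at and 656 and 820.1 (0.32) on 222752_s_at. VPS13A, a bridge-like lipid transfer protein, was lower on 214785_at, at 402 and 293 (-0.45), and higher by 0.058 to 0.28 on 3 probe sets of like brightness. All 4 VPS13A probe sets read above 200 on both arrays.

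UGGT2, related to the glucosyltransferase that checks glycoprotein folding, was lower on 1555561_a_at, at 156 and 102 (-0.60), and differed by -0.20 to 0.091 elsewhere. ATL3, an atlastin that shapes tubules of the endoplasmic reticulum, read 425 and 352 (-0.27) on 223452_s_at and 811 and 1025 (0.34) on 224893_at. SPPL3, a Golgi intramembrane protease, read 851 and 756 (-0.17) on 224640_at and 206 and 286 (0.47) on 224638_at. In RAB7A, the GTPase of late endosomes, bright probe sets differed by -0.18 to -0.06 and the dim 227602_at read 112 and 152 (0.44). TMEM127, an endosomal protein that restrains mTOR signalling, had 235659_at at 165 and 243 (0.56) against -0.087 to 0.11. CNNM2, a magnesium transport protein, had its brightest probe set, 209874_x_at, at 206 and 290.3 (0.49) against -0.20 to 0.03.

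Metabolism and mitochondria took 11 genes. PGK1, phosphoglycerate kinase of glycolysis, had 5 probe sets that differed by -0.15 to 0.0064, among them the brightest, 200738_s_at, at 5935 and 5646 (-0.072), and the dimmest, 1558365_at, at 135 and 124 (-0.12). The odd one, 217383_at, read 210.2 and 327 (0.64), at 6.76% of the median control intensity of the others. MRPL41, a mitochondrial ribosomal protein, and UQCC5, an assembly factor of respiratory complex III, also had 1 higher probe set, with 225423_x_at at 129.5 and 189 (0.54) against -0.073 to 0.088 and 238207_at at 104 and 146 (0.48) against -0.13 to -0.035. In UQCC5 all 4 probe sets read under 200. TMEM70, an assembly factor of ATP synthase, differed by -0.11 and -0.047 on bright probe sets and read 310.2 and 452 (0.54) on 226083_at.

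TIMM17A, a subunit of the inner membrane translocase, was disputed by a pair of bright probe sets of nearly equal control intensity. Its 215171_s_at read 1557 and 2669, a difference of 0.78, 1.71-fold higher, and 201821_s_at read 1610.2 and 1735 (0.11). SQLE, squalene epoxidase of cholesterol synthesis, read 1699 and 1599 (-0.087) on its brightest probe set, 209218_at, and 260.2 and 399.8 (0.62) on 213562_s_at. ARG2, the mitochondrial arginase, was higher on 203945_at, at 552 and 802 (0.54), and lower on 203946_s_at, at 695 and 621 (-0.16). UCP2, a mitochondrial carrier, had its higher value on the brighter probe set, 208998_at, at 1301 and 1524 (0.23), and its lower one on 208997_s_at, at 219 and 165 (-0.40).

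HNMT, which inactivates histamine, was lower on 204111_at, at 505 and 367 (-0.46), nearly level on its brightest, 211732_x_at, at 745 and 761 (0.029), and highest on 1554303_at, at 107 and 122 (0.19). GM2A, the activator of ganglioside breakdown, was lower on 209727_at, at 148 and 112 (-0.40), and higher on its 2 brightest, 212737_at and 35820_at, at 356 and 429.5 (0.27) and 329 and 381 (0.21). SELENOH, a nucleolar selenoprotein, was higher by 0.21 to 0.25 on its 3 bright probe sets, and its 2 dim probe sets lay apart on either side, with 1557801_x_at at 205 and 190.2 (-0.11) and 1557799_at at 132 and 187 (0.50).

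Non-coding transcripts, pseudogenes and a locus entry made up 6 members. MALAT1, an abundant nuclear RNA of splicing speckles, had the most kept probe sets, 12. Its 2 lower ones were bright, with 224567_x_at at 4579.7 and 4105 (-0.16) and 226675_s_at at 2509 and 2244 (-0.16), while 1558678_s_at, of similar brightness, read 3771 and 4399.8 (0.22). The other 9 were higher, by 0.19 to 0.89, with 223578_x_at at the top at 276 and 511 (0.89). The median over the 12 was 0.32, although the brightest probe set was lower. LINC01128 read 282 and 405 (0.52) on 1557055_s_at and -0.18 to -0.055 on its others, and MINCR read 132 and 202 (0.62) on 235428_at and 174 and 161 (-0.11) on 244411_at.

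BMS1P20, a pseudogene entry related to the ribosome biogenesis factor BMS1, read 303 and 204 (-0.57) on 233132_at and 148 and 219 (0.56) on 226802_s_at, a near mirror image. DUXAP10, a double homeobox pseudogene, read 900.3 and 776 (-0.21) on 242881_x_at and 238 and 369 (0.63) on 239010_at, and 2 probe sets annotated to DUXAP10 together with its relatives read 855 and 901 (0.076) and 655 and 709.8 (0.12). IGH stands for the whole immunoglobulin heavy chain locus, so its probe sets 217469_at and 211693_at, at 161 and 126 (-0.35) and 202 and 248 (0.30), need not read 1 transcript.

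GPATCH2L and KIAA1958 are left without a role here. GPATCH2L, which carries a G-patch domain found in RNA-associated proteins, differed by -0.26 to 0.18 on 5 probe sets and by 0.95 on 239478_x_at, its dimmest, which read 105 and 205. Its spread was 0.45 without _x_at probe sets. KIAA1958 read 182 and 159 (-0.19), 519.6 and 577 (0.15) and 175 and 259 (0.57) on its 3 probe sets, of which the middle one was the brightest.

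**Figure D4:**
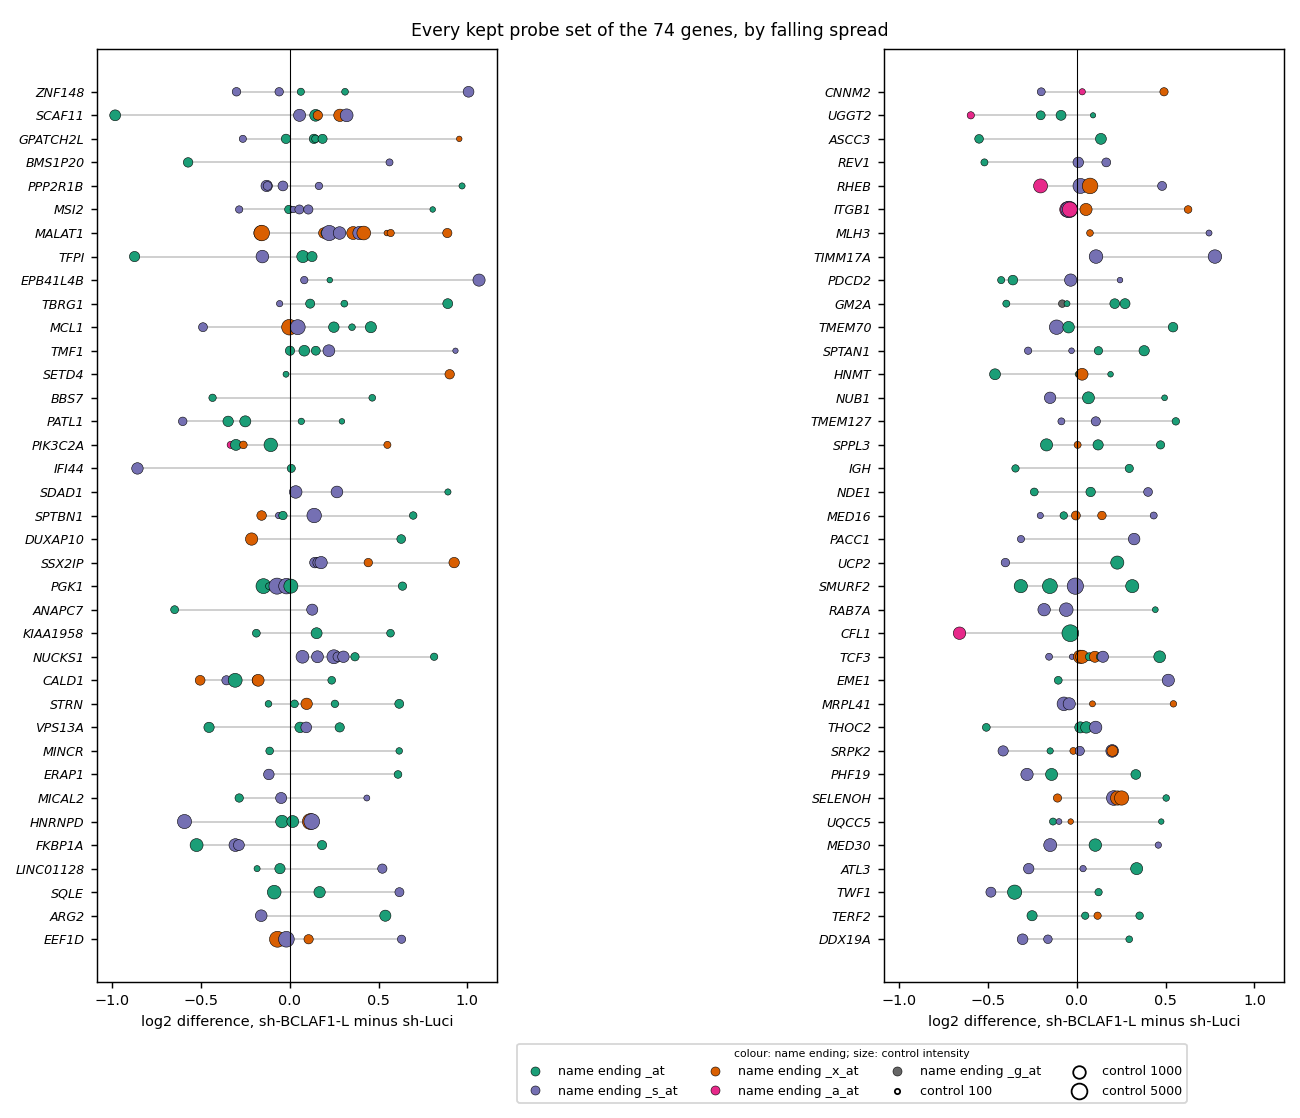
Each row is 1 of the 74 genes in order of falling spread, and each dot 1 kept probe set, placed by its log2 difference between sh-BCLAF1-L and sh-Luci; colour gives the ending of the probe set name and size the control intensity. The rows of PGK1, ITGB1 and EEF1D show large dots near 0 and a small odd dot to the right, whereas HNRNPD, TIMM17A and SMURF2 have large dots at both ends.

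Disagreement also occurred between probe sets designed from the same source record. The probe annotation lists the sequence record behind most probe sets, and 341 pairs of kept probe sets of the 4968 genes shared one, with a median distance of 0.11 between their differences. Members held 16 of these pairs, with a median of 0.52. Members were chosen for distance between their probe sets, so nothing is read from that median. Of all 341 pairs 6 lay 0.6 or more apart, all in members because such a pair alone meets the rule. They were the pair in TFPI (0.72), PATL1 (0.67), PGK1 (0.65), EME1 (0.62), SELENOH (0.61) and GM2A (0.61). In TFPI these were 210665_at and 210664_s_at, which differed by -0.87 and -0.15. In FKBP1A the pair 210186_s_at and 210187_at differed by 0.47 and in ITGB1 the pair 216178_x_at and 216190_x_at by 0.57.

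Some of these genes have named relatives of similar sequence or at the same place. Of the 74 genes 19, or 25.7%, have at least 1 pseudogene named after them in the RefSeq gene table, against 19.2% of the 4968 genes. CFL1 and EEF1D have 8 each and FKBP1A and SDAD1 4 each. An antisense or divergent transcript named after the gene exists for 11 members, 14.9%, against 15.4% of the 4968 genes, and these include VPS13A, ITGB1, MSI2 and SDAD1. Whether any probe set of these genes reads such a transcript was not tested, and values of genes with close copies are uncertain for that reason.

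The disagreements that rest on bright probe sets form a smaller set. In 21 of the 74 genes both the highest and the lowest probe set read at least 200 on both arrays, among them SCAF11, TFPI, HNRNPD, VPS13A, FKBP1A, SMURF2, TIMM17A, CFL1, PHF19 and ATL3. When only probe sets of at least 200 entered, 23 of 2896 genes met the rule (0.794%). When each gene was judged on its 2 brightest kept probe sets alone, so that genes with many probe sets had no more chances than others, 25 genes met it (0.503%). These 25 are the 17 genes that have only 2 kept probe sets, for which this setting changes nothing, and 8 others. The 8 are ZNF148, EPB41L4B, TBRG1, SSX2IP, CNNM2, UQCC5, ATL3 and TERF2. Brightness was ranked here over both arrays, not on the control alone. The 2 brightest can still be dim, and in UQCC5 and MLH3 every kept probe set read under 200. Of 51 named genes, SCAF11, TFPI, VPS13A, FKBP1A, SMURF2, PGK1 and TBRG1 stayed at or past 0.6 with the pseudocount of 32, with the intensity limit of 200, without _x_at probe sets, without _s_at and _x_at probe sets and after lowess subtraction. In ANAPC7, BBS7, BMS1P20, DUXAP10, EEF1D, EPB41L4B, IFI44, KIAA1958 and SETD4 some of these settings left fewer than 2 probe sets and no value. Where they had a value it was at least 0.6. On the 2 brightest probe sets EEF1D was at 0.050, KIAA1958 at 0.42 and EPB41L4B at 0.98. ANAPC7, BBS7, BMS1P20, DUXAP10, IFI44 and SETD4 have only 2 kept probe sets. For them this setting repeats the rule and says nothing of stability. On the 2 brightest probe sets, however, the spread of TBRG1 was 0.77, while it was 0.038 for SCAF11, 0.23 for TFPI, 0.035 for VPS13A, 0.22 for FKBP1A, 0.14 for SMURF2 and 0.054 for PGK1. All 7 lay under 0.6 without the odd probe set.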

How the data were processed

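RNA of 2 RKO cultures was measured on Affymetrix 3' expression arrays, 1 per group. Per the labels' protocols, Trizol served for extraction, and 200 ng of total RNA went into labelling with biotin by a 3' IVT kit. In the deposited table each probe set has an intensity on the linear scale, and RMA is named in the submitters' processing notes. Program, version, scaling and genome build: not given in the sources used here. The table held 54675 probe sets, of which 41097 had 1 gene symbol, 1801 several and 11777 none in the probe annotation; 41043 of the first were found in a RefSeq gene table (GRCh38.p14), whose symbols changed none. Intensities were used as log2(intensity + 1). Kept probe sets (1 symbol, at least 100 on both arrays) numbered 19535, from 11572 genes. The 1.5-fold counts use the brightest kept probe set of a gene, BCLAF1 included.

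Members, lists and role groups were chosen with earlier results of these data known. Named genes were ZNF148, members with a probe set at least 0.3 higher and another at least 0.3 lower, the 25 largest spreads, members with 4 or more kept probe sets, those in a gene list and the 3 on either side of the limit; the other members were added to account for all. Scripts ran in Python 3.11.15 with pandas 2.3.3, numpy 2.4.6 and statsmodels 0.14.6. The rule was run on simulated data only to check that it was applied as written. That simulation had less noise between probe sets than measured here, so it gives no error rate for the members. The number of arrays limits the precision, and no p-value and no set test was computed.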

Additional observations from a re-analysis of the deposited data

How the results depend on the processing

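No paired analysis was possible because there was 1 array per group, so leaving out a replicate was not possible either. The count was 74 of 4968 genes (1.49%), and some settings changed how many genes could enter. It was 42 with a pseudocount of 32 (0.845%). With an intensity limit of 64 it was 166 of 6541 (2.54%), and 23 of 2896 (0.794%) with a limit of 200. Without _s_at and _x_at probe sets it was 23 of 2250 (1.02%). At spread limits of 0.5 and 1 it was 163 (3.28%) and 7 (0.141%), and on the 2 brightest probe sets 25 (0.503%). The count of 66 genes with probe sets in both directions became 36, 152, 19, 21, 138, 7 and 19 in the same order. Leaving out the odd probe set of each member, an alternative added after seeing the data, left 20 genes: the 17 with 2 kept probe sets, where none can be left out, and 3 others. Without _x_at probe sets 62 genes remained, all among the 74, and after lowess subtraction (span 0.3) 75, of which 74 were the same genes. Subtracting the median difference of 0.026, using the platform symbols or, for a single gene, adding probe sets by the limit of 64 cannot lower a spread here and says nothing of stability. Of the 51 named genes, those that fell under 0.6 numbered 18 with the pseudocount of 32, 25 with the limit of 200, 8 without _x_at probe sets (CALD1, GPATCH2L, ITGB1, MALAT1, MRPL41, PIK3C2A, SELENOH and SSX2IP) and 15 without _s_at and _x_at ones, and the last 3 settings left 10, 2 and 17 named genes with fewer than 2 probe sets and thus no value. With the median over probe sets in place of the brightest, the median of the splicing list went from -0.025 to -0.026, that of the cleavage and polyadenylation list from 0.0078 to 0.057 and that of the interferon list from -0.28 to -0.28. The within-gene SD lay between 0.12 and 0.15 in the alternatives. Signal near background limits what dim probe sets can show.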

Other observations

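A further 101 probe sets of 45 members did not reach the intensity limit on both arrays and took no part in choosing the genes. The range of a member is wide by the rule, and of these 79 lay inside the range of the gene's kept probe sets, 13 below it and 9 above it. Over all 4968 genes, 2895 of 4209 such probe sets lay outside the range. For TIMM17A 201822_at read 67.6 and 65.1 (-0.054), nearer to the kept 201821_s_at than to 215171_s_at. For MLH3 217216_x_at read 80.8 and 98 (0.28), between its 2 kept probe sets, and for SETD4 230899_at read 47.2 and 55 (0.22), also between them. For BMS1P20 the 3 probe sets under the limit differed by -0.078, -0.031 and 0.091, near the midpoint of the kept pair. The 2 dim CFL1 probe sets, 230870_at and 236792_at, read 45.1 and 43.0 (-0.067) and 41.9 and 40.7 (-0.040). Both differences lay nearer to that of 200021_at than to that of 1555730_a_at. For CNNM2 1554522_at read 30.7 and 21.1 (-0.52), opposite to its odd probe set. Dim probe sets are limited in what they can show, so none of these readings decides between kept probe sets.

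Probe sets annotated to several symbols including a member numbered 15, of which 11 belong to the immunoglobulin heavy chain locus. All 11 read under 100 on at least 1 array, and their differences ran from -0.20 to 0.27, inside the range of the 2 kept IGH probe sets.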
